A study of Mus musculus with 9 samples.

Results

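The genes described here are 7 genes of the MHC class II antigen-presentation pathway: H2-Aa, H2-Ab1, H2-Eb1, Cd74, Ciita, H2-DMa and H2-DMb1. They were picked by gene symbol, and all 7 were found among the 78239 genes of the deposited table. Each was followed in all 9 RNA-seq libraries of sorted mouse intestinal crypt cells and set beside Ptprc, the gene of the leukocyte surface protein CD45.

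MHC class II molecules are surface proteins made of an alpha and a beta chain that present peptides to CD4+ T cells. The chains assemble in the endoplasmic reticulum with the invariant chain CD74, which blocks the peptide groove, and in endosomes the DM heterodimer swaps the remaining invariant-chain fragment for a peptide. CIITA is the transcriptional co-activator that most class II genes depend on, and interferon-gamma can induce it. B cells, dendritic cells and many macrophages express the pathway constitutively, and intestinal epithelial cells are known to express it too, most of all in the small intestine.

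All animals were 8-week-old mice carrying the Lgr5-2A-eGFP reporter allele, in which GFP is made together with LGR5, a receptor of intestinal stem cells. Crypt cells were dissociated and sorted on GFP, which is the single gate the labels name, and poly(A) RNA was sequenced. The colon gave GFP-high (3 libraries) and GFP-negative cells (3 libraries), with at least 30000 cells sorted, and the small intestine gave 3 libraries with at least 50000 cells, whose GFP fraction the labels do not give. All groups shared the allele, and nothing in the labels ties replicates to different mice, so each p-value speaks of the scatter among these libraries, which may be technical. In bulk RNA, more expressing cells and more RNA per expressing cell cannot be told apart.

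Total counts ranged from 86621513 to 106673547 per library, so a count of 3 corresponded to between 0.0232 and 0.0411 CPM, the count scaled to the effective library size (total count times the normalization factor in the table). Lgr5 itself went against the labels in the colon replicate 2 pair, with 0.96 CPM in the library labelled GFP-high and 62.1 CPM in the library labelled GFP-negative. In the other colon libraries Lgr5 was at 43.5 and 73.0 CPM in GFP-high and at 2.84 and 6.28 CPM in GFP-negative cells, and it reached 57.9, 120 and 209 CPM in the small intestine. The summed level of 10 epithelial marker genes lay between 12446 and 30945 CPM in every library, but single markers varied more, such as Krt20 of mature enterocytes and colonocytes (10.9 to 2364 CPM).

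On the GRCm38 assembly (GENCODE M21 annotation), 5 of the 7 genes lie close together on chromosome 17, in the mouse H2 complex. These are H2-DMa (34119541 to 34139101, plus strand), H2-DMb1 (34153072 to 34160230, plus strand), H2-Ab1 (34257689 to 34269419, plus strand), H2-Aa (34282744 to 34287823, minus strand) and H2-Eb1 (34305867 to 34316674, plus strand). Ciita lies on chromosome 16 (10480059 to 10528418, plus strand), and Cd74 lies on another chromosome, given beside its values.

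Class II promoters share a module of X, X2 and Y boxes, on which the RFX, CREB-family and NF-Y factors assemble and recruit CIITA. The RefSeq promoter table (GRCm38.p6) held entries for 4 of the 7 genes, and H2-Ab1, Cd74 and Ciita had none. The 150 bases before the start of an alpha-chain and a beta-chain gene are shown because most of the module can be seen in them. Capitals mark letters matching the X box (10 letters, 3 of them free), the X2 box TGANGTCA or TGACGNNA, the Y box CTGATTGG or its core ATTGG, on either strand. These are chr17:34287824-34287973 on the minus strand for H2-Aa and chr17:34305717-34305866 on the plus strand for H2-Eb1.
H2-Aa: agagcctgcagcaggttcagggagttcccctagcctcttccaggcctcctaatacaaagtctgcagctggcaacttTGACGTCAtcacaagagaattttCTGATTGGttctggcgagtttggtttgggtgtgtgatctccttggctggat
H2-Eb1: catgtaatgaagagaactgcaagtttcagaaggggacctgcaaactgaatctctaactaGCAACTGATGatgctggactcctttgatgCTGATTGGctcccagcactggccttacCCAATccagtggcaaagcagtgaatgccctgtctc
H2-Eb1 held an X box, GCAACTGATG, beginning at position -91 from its start and a full Y box at position -62. H2-Aa held a full Y box at position -51 and an X2 box at position -74, with no match to the X box letters in the window searched. H2-DMb1 held an X box, GTAACTGATG, at position -94 and the Y box core at position -61, whereas its neighbour H2-DMb2 held the Y core alone, at position -90. In H2-DMa the Y core matched at the second of its listed starts, at position -198. Over 32851 RefSeq promoter windows, 3.54% held the X box letters and 37.4% the Y box core, which also lies within the full Y box (4.1%). The X2 box letters TGANGTCA were in 8.83% and TGACGNNA in 6.61% of windows, and the 2 overlap where both match. The X box letters and the Y core stood together in 1.26%, H2-Eb1 and H2-DMb1 among them. A match describes letters only.

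The class II chains were high in the small intestine and in 1 colon library, GFP-negative replicate 3. H2-Ab1, a beta chain of the I-A molecule, measured 9.53, 255 and 18.3 CPM in replicates 1, 2 and 3 of the GFP-high colon cells. Replicates 1, 2 and 3 of the GFP-negative colon cells gave 56.7, 8.25 and 1563 CPM, and those of the small intestine 1061, 775 and 318 CPM. In the same order H2-Aa, the alpha chain that pairs with it, was at 14.5, 149 and 7.65 CPM, at 35.2, 4.15 and 1096 CPM, and at 441, 341 and 107 CPM. Every small intestine library exceeded every GFP-high library for H2-Ab1, and all but 1 such pair of libraries did so for H2-Aa, where GFP-high replicate 2 stood above small intestine replicate 3. H2-Eb1, the beta chain of the I-E molecule, was at 3.95, 94.6 and 7.19 CPM (GFP-high), 21.98, 2.78 and 778 CPM (GFP-negative) and 259.9, 260.2 and 123.1 CPM (small intestine). For all 3 chains the GFP-negative group held both the lowest of the 9 libraries, replicate 2, and the highest, replicate 3. H2-Ea, which encodes the alpha chain that would pair with H2-Eb1, had no count in any of the 9 libraries. Some mouse haplotypes, that of C57BL/6 among them, are known not to transcribe it.

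**Figure D1:**
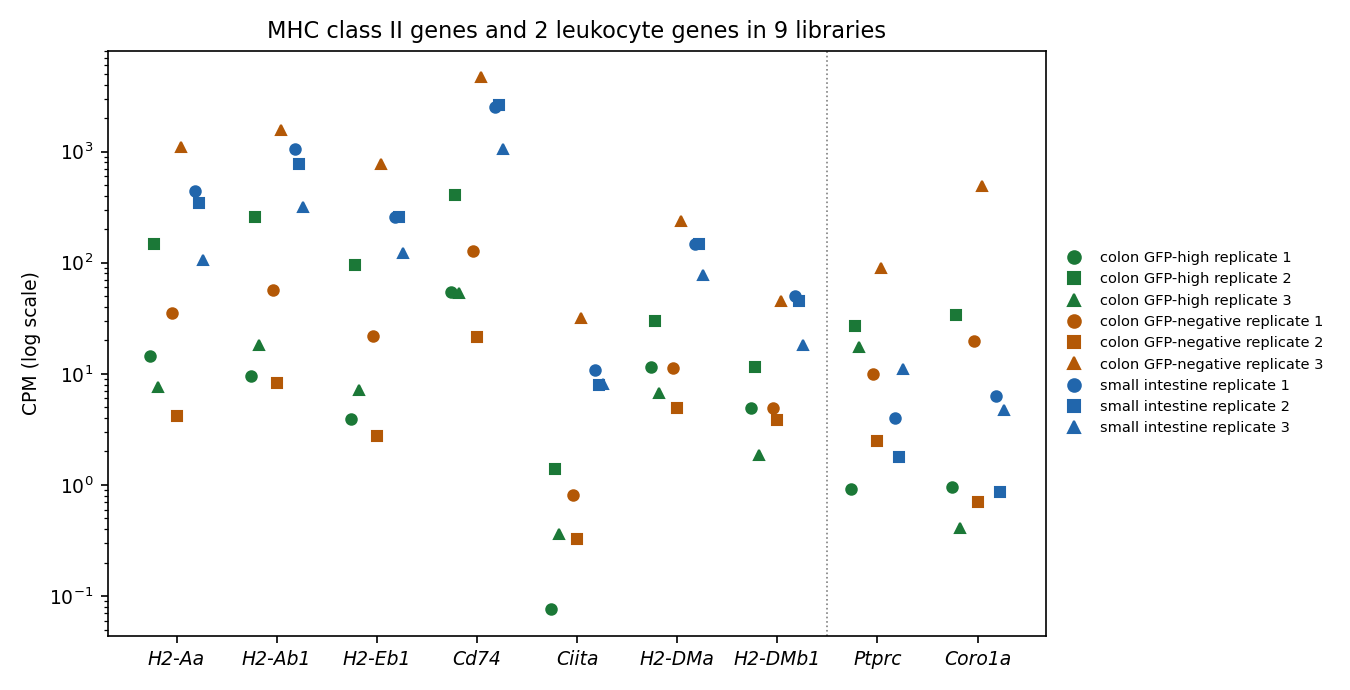
Level of each gene in CPM (log axis) in each of the 9 libraries, with colour for the group and symbol shape for the replicate, and with the leukocyte genes Ptprc and Coro1a to the right of the dotted line. The small intestine points (blue) are high for the class II genes and low for Coro1a, while colon GFP-negative replicate 3 (orange triangle) is high for both.

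Cd74, the invariant chain, on chromosome 18 (60803848 to 60812652, plus strand), was the most abundant of the genes. It stood at 54.0, 407 and 53.1 CPM (GFP-high), 126, 21.6 and 4651 CPM (GFP-negative) and 2496, 2599 and 1054 CPM (small intestine). The small intestine libraries were all above the 3 GFP-high libraries and lay within the span of the GFP-negative ones. By mean the groups were ordered small intestine (2050 ± 864 CPM, SD, n = 3), GFP-negative (1600 ± 2643 CPM, SD, n = 3) and GFP-high (171 ± 204 CPM, SD, n = 3), and neighbouring groups in that order did not differ beyond their spread.

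The peptide-loading pair had a narrower range. H2-DMa, the alpha chain of DM, was at 11.4, 30.0 and 6.66 CPM (GFP-high), 11.3, 4.97 and 236 CPM (GFP-negative) and 147.6, 148.5 and 77.1 CPM (small intestine). H2-DMb1, a beta chain of DM, was at 4.91, 11.6 and 1.87 CPM, at 4.89, 3.82 and 45.3 CPM, and at 50.2, 44.9 and 18.0 CPM in the same order. All small intestine libraries were above all GFP-high libraries for both genes. H2-DMb1 was the single member for which colon GFP-negative replicate 3 was not the highest library, since small intestine replicate 1 was above it. That library was the highest of the 9 for the other 6 members and for 19.5% of the 20610 genes tested.

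Ciita, the co-activator, was the least abundant. It was at 0.0764 CPM (8 counts), 1.39 and 0.363 CPM (GFP-high), 0.804, 0.329 and 31.8 CPM (GFP-negative) and 10.8, 7.99 and 8.10 CPM (small intestine). The small intestine libraries lay close together (8.98 ± 1.62 CPM, SD, n = 3), and each was above 5 of the 6 colon libraries. Within the GFP-high group the library labelled replicate 2, in which Lgr5 was nearly absent, was the highest for 7 of 7 members, as it was for 35.3% of all genes tested.

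Per kilobase of the gene length in the table, the mean level over the 9 libraries fell in the order Cd74 (759 CPM per kb), H2-Ab1 (176), H2-Eb1 (88.7), H2-Aa (64.2), H2-DMa (21.7), H2-DMb1 (12.3) and Ciita (0.719), with Ptprc at 0.995 CPM per kb. Cd74 made up between 54.5% and 72.2% of the summed level per kb of the 7 genes in each library. The ratio of H2-Eb1 to H2-Ab1 per kb ran from 0.324 to 0.658, that of Cd74 to H2-Ab1 from 2.44 to 8.67 and that of H2-Ab1 to H2-Aa from 0.972 to 4.41. Wider ranges were found for H2-DMa to H2-Ab1, from 0.0877 to 0.891, and for Ciita to H2-Ab1, from 0.00147 to 0.0107. Over the 9 libraries the 21 pairs of members had Pearson correlations of log2(CPM + 0.5) between 0.916 and 0.996, median 0.961. These points share libraries and normalization, and the values are a description.

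The comparison of the colon fractions sets libraries labelled GFP-high beside libraries labelled GFP-negative, with Lgr5 against the labels in the replicate 2 pair. The labels name no gate that selects epithelial cells. All 7 members had a lower fitted level in GFP-high than in GFP-negative cells, and none passed the test (edgeR quasi-likelihood test, Benjamini-Hochberg adjustment over 20610 genes, adjusted p = 1 for each), in a comparison that called 0.0% of all genes. A lower fitted level was found for 51.7% of all genes. The log2 fold changes ran from -1.58 ± 1.01 (SE) for H2-DMb1 to -4.19 ± 1.68 for Ciita, with Cd74 at -3.24 ± 1.69, and their median was -2.76 against -0.02 over all genes tested. Ciita alone had an unadjusted p under 0.05, and DESeq2, which called 0.00485% of all genes lower, and limma-voom called 0 of 7 on the same libraries. DESeq2 gave no adjusted p for 4 of the 7, which therefore could not be called by it. For 0 of 7 members were all GFP-negative libraries above all GFP-high libraries, a pattern seen in 1.59% of all genes.

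These values rested on 1 library. Without colon GFP-negative replicate 3 all 7 fold changes turned positive, from 0.11 for Ciita to 1.54 for H2-Aa and H2-Ab1, and again none was called. Colon libraries that carry the same tag in their names, whose meaning the labels do not give, went in opposite directions by GFP label. In the replicate 1 pair 5 of 7 members were more than 2-fold higher in the GFP-negative library, as were 24.7% of all genes. In the replicate 2 pair 7 of 7 were more than 2-fold higher in the library labelled GFP-high, as were 17.7% of all genes. In both pairs the library with less Lgr5 RNA had the higher sum of the members. The sums were 257 against 98.3 CPM in the replicate 1 pair and 949 against 45.9 CPM in the replicate 2 pair. Colon libraries with Lgr5 at 6.28 CPM or less had sums of 949, 257 and 8402 CPM, and the others of 98.3, 95.1 and 45.9 CPM. That grouping by Lgr5 was made after the values were seen and was not tested. With both libraries of the replicate 2 pair left out, the fold changes ran from -2.90 for H2-DMb1 to -6.22 for Ciita, 7 of 7 had an unadjusted p under 0.05 and 0 of 7 passed after adjustment in edgeR. DESeq2 on the same 7 libraries, an alternative chosen after seeing the data, called 7 of 7 lower in GFP-high cells, where it called 2.67% of all genes lower.

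The next comparison sets GFP-high colon cells beside the small intestine. The GFP fraction of the small intestine libraries is not given, and their minimum cell number differed. Region and sorted fraction therefore cannot be told apart, here or for both colon groups. All 7 members had a lower fitted level in the colon cells, as had 49.0% of all genes. The median of their log2 fold changes was -2.94, against 0.02 for all genes tested, and without GFP-high replicate 2, whose Lgr5 goes against its label, it was -5.26. None was called by edgeR's quasi-likelihood test with Benjamini-Hochberg adjustment, which called 5.69% of all genes, 1.75% as lower in the colon cells, and 3 of 7 had an unadjusted p under 0.05. H2-DMb1 had a log2 fold change of -2.63 ± 1.05 (SE, adjusted p = 0.200), Ciita of -3.88 ± 1.66 (adjusted p = 0.229), H2-DMa of -2.96 ± 1.30 (adjusted p = 0.241) and Cd74 of -3.58 ± 1.71 (adjusted p = 0.283). The 3 chains ran from -2.38 to -2.94. All 3 small intestine libraries were above all 3 GFP-high libraries for 6 of 7 members, H2-Aa being the exception, and for 13.1% of all genes.

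DESeq2 on all 9 libraries called 1 of 7 members, H2-DMb1 (adjusted p = 0.038), as lower in GFP-high cells, against 4.78% of all genes, and gave no adjusted p for 4 of the 7, while limma-voom called 0 of 7. Without the replicate 2 pair DESeq2 called 7 of 7 members lower in GFP-high colon cells, against 3.66% of all genes, and edgeR called 0 of 7. Among libraries with a shared tag, small intestine replicate 2 was more than 2-fold above GFP-high replicate 1 for 7 of 7 members (24.9% of all genes), and small intestine replicate 3 above GFP-high replicate 3 for 7 of 7 (13.3% of all genes). Small intestine replicate 2 was also more than 2-fold above GFP-negative replicate 1 for 7 of 7 (16.5% of all genes).

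Both colon groups together were compared with the small intestine in the same fit. The 7 members again had a lower fitted level in the colon, as had 50.0% of all genes, and their median log2 fold change was -1.75 against -0.00 over all genes tested. Vil1, a brush-border gene of the epithelial list, was between 115.6 and 287 CPM in the colon and at 894, 275 and 662 CPM in the small intestine, and its log2 fold change was -1.57 ± 0.39 (edgeR, adjusted p = 0.0390), called in 1 of 9 fits that left out a library. Esam, listed as an endothelial gene, was at 10.2 CPM or less in the colon and at 7.64, 16.2 and 18.3 CPM in the small intestine, with -1.68 ± 0.43 (edgeR, adjusted p = 0.0455), called in 2 of 9 such fits. Other endothelial genes of its list did not follow it. Pecam1 was at 0.411, 0.156 and 0.620 CPM in the small intestine and reached 6.14 CPM in colon GFP-negative replicate 3. Kdr was at 0.631 CPM in small intestine replicate 1, at 0 in replicates 2 and 3, and at 0.131 CPM or less in the colon. Cdh5 had no count in any library. The part of Vil1 and Esam in the class II difference was not tested. None of the members was called (edgeR, Benjamini-Hochberg adjusted p from 0.205 for H2-DMb1 to 0.699 for H2-Aa), whereas 8.79% of all genes were, 3.79% as lower in the colon. At an unadjusted p under 0.05 the count was also 0 of 7, DESeq2, which called 6.65% of all genes lower, called 0 of 7 and limma-voom 0 of 7. Here too DESeq2 gave no adjusted p for 4 of the 7. For 0 of 7 members were all small intestine libraries above all 6 colon libraries, a pattern seen in 8.39% of genes. DESeq2 without the replicate 2 pair called 3 of 7 lower (Cd74, H2-Ab1 and H2-DMb1), against 5.29% of all genes. Leaving out colon GFP-negative replicate 3 changed the edgeR count: edgeR then called 4 of 7 members lower in the colon, where it called 3.36% of all genes lower. Those were H2-DMa (log2 fold change -3.45, adjusted p = 0.008), H2-DMb1 (-2.87, adjusted p = 0.021), Ciita (-3.94, adjusted p = 0.022) and Cd74 (-4.19, adjusted p = 0.026). In the comparison of GFP-high cells with the small intestine, leaving out that library added 1 call, H2-DMa (adjusted p = 0.031), where 2.06% of all genes were called lower.

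**Figure D2:**
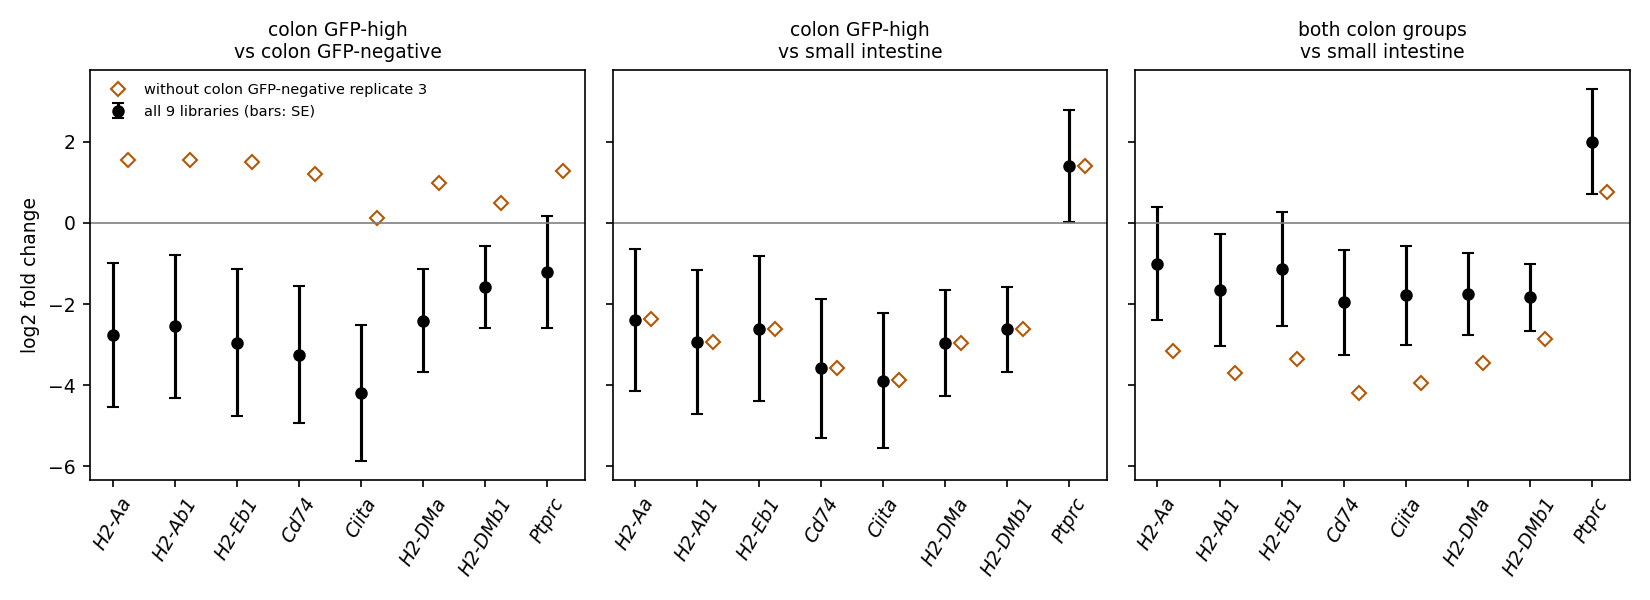
Log2 fold change from edgeR in 3 comparisons, for the 7 genes and Ptprc; black points are the fit of all 9 libraries with bars of 1 SE, and open diamonds the fit without colon GFP-negative replicate 3. In the left panel the 7 black points lie below 0 and the diamonds above it, and in the other panels both sets lie below 0 for the class II genes.

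Ptprc did not follow the class II genes between the colon and the small intestine. It was at 0.916, 26.7 and 17.3 CPM (GFP-high), 9.95, 2.49 and 89.7 CPM (GFP-negative) and 3.99, 1.80 and 11.2 CPM (small intestine). Its fitted level was higher in the colon groups than in the small intestine (log2 fold change 2.00 ± 1.30, SE; edgeR, adjusted p = 0.379), while those of the 7 members were negative. Between the colon fractions the log2 fold change of Ptprc was -1.21, negative like those of the members, and was not called. Without GFP-negative replicate 3 it was 1.27, positive as theirs then were. Coro1a, an actin regulator abundant in leukocytes, was at 0.955, 33.5 and 0.410 CPM (GFP-high), 19.6, 0.698 and 492 CPM (GFP-negative) and 6.28, 0.859 and 4.68 CPM (small intestine). The leukocyte genes did not rank the libraries alike: GFP-high replicate 3 had the third highest Ptprc level and the lowest Coro1a level.

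Relative to either leukocyte gene, Cd74 was higher in every small intestine library than in every colon library. Per kb of gene length, Cd74 to Ptprc was 642, 167 and 33.5 (GFP-high), 138, 94.6 and 565 (GFP-negative) and 6824, 15780 and 1031 (small intestine). Cd74 to Coro1a, a reference chosen after seeing the data, was 93.7, 20.2 and 215 (GFP-high), 10.7, 51.4 and 15.7 (GFP-negative) and 659, 5014 and 373 (small intestine). Over the 7 members this absence of overlap held for 4 with Ptprc, against 3.13% of all genes tested, and for 6 with Coro1a, against 1.44% of all genes, H2-DMb1 being the one that overlapped with Coro1a. For Ciita to Ptprc the values were 0.160, 0.100 and 0.0403 (GFP-high), 0.155, 0.254 and 0.680 (GFP-negative) and 5.22, 8.54 and 1.39 (small intestine), which did not overlap with the colon either.

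**Figure D3:**
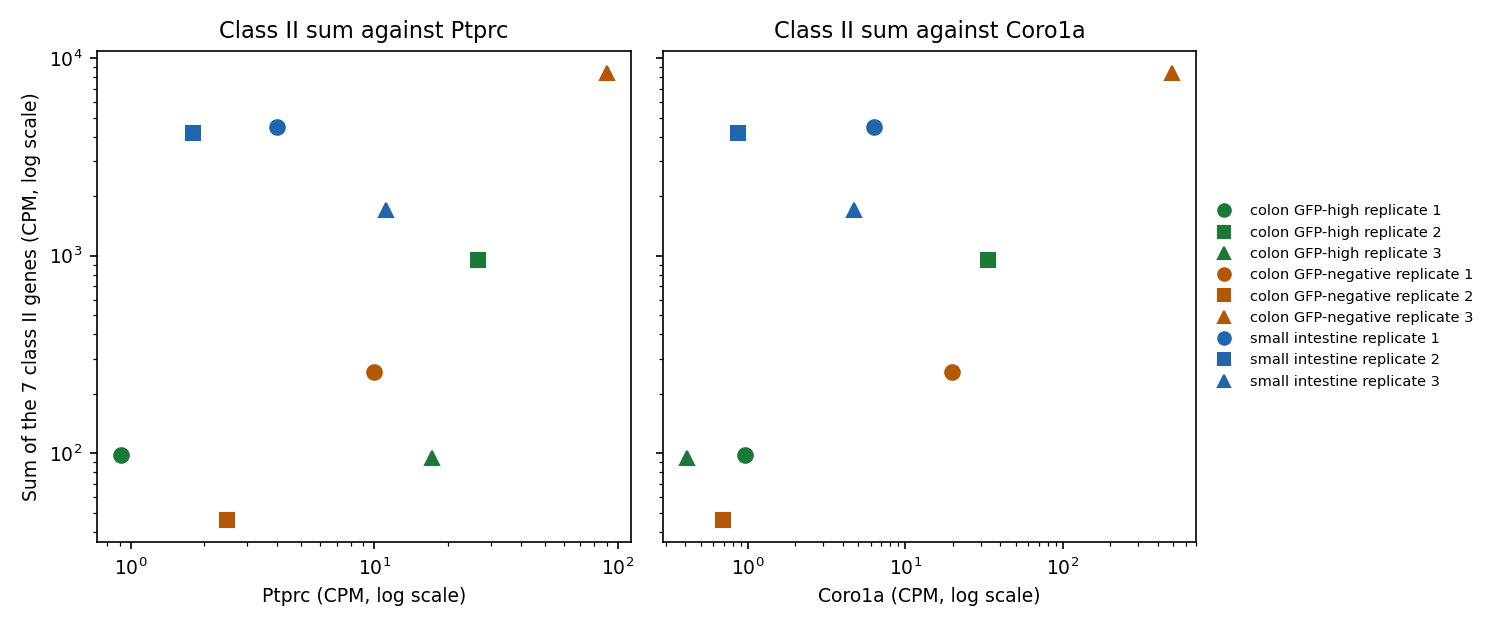
Summed CPM of the 7 class II genes against Ptprc (left) and Coro1a (right), both axes on a log scale, 1 point per library. Colon GFP-negative replicate 3 has the highest value on every axis, while the small intestine libraries have class II sums from 1705 to 4466 CPM at Coro1a levels from 0.859 to 6.28 CPM.

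Summed levels of leukocyte marker lists were highest in colon GFP-negative replicate 3, as was that of the members. Over the other colon libraries the B-cell and T-cell sums kept the members' order, except that GFP-high replicates 1 and 3, close in each sum, changed places. In the B-cell sum the place of GFP-high replicate 2 above GFP-negative replicate 1 rested on Jchain, a plasma-cell gene. The macrophage and dendritic-cell sums departed further from that order, in part through C1qa. The pan-leukocyte sums did too, through Ptpn6 and Rac2. The summed level of the 7 members was 98.3, 949 and 95.1 CPM (GFP-high), 257, 45.9 and 8402 CPM (GFP-negative) and 4466, 4176 and 1705 CPM (small intestine). The 14 B-cell and plasma-cell genes summed to 1.87, 373 and 2.10 CPM, to 31.7, 0.53 and 2427 CPM, and to 50.4, 3.20 and 3.86 CPM in the same order. Colon GFP-negative replicate 3 and GFP-high replicate 2 thus led the colon libraries for both sums, while small intestine replicates 2 and 3 had class II sums of 4176 and 1705 CPM beside B-cell sums of 3.20 and 3.86 CPM. Jchain alone was at 346 CPM in GFP-high replicate 2 and at 0.104 CPM in GFP-negative replicate 1. Of the 14 B-cell genes, Igkc included, 10 were at 0 in GFP-high replicate 1, 6 in small intestine replicate 2, 5 in small intestine replicate 3 and 0 in GFP-negative replicate 3. The 22 macrophage and dendritic-cell genes summed to 2.96, 265 and 7.27 CPM (GFP-high), 731, 65.7 and 1239 CPM (GFP-negative) and 59.3, 12.2 and 49.5 CPM (small intestine), so that GFP-negative replicate 1 was above GFP-high replicate 2 for these genes and below it for the members. In GFP-negative replicate 2 C1qa alone was at 63.5 CPM, and 10 of the 22 genes were at 0. The 18 T-cell and innate lymphoid genes summed to 51.7, 230 and 52.2 CPM (GFP-high), 110, 30.1 and 1828 CPM (GFP-negative) and 146, 34.4 and 64.1 CPM (small intestine). Among defining markers, Cd79a of the B-cell receptor was at 476 CPM in GFP-negative replicate 3 and at 2.29, 0.0586 and 0.287 CPM in the small intestine, and Laptm5 was at 317 CPM and at 3.88, 0.625 and 2.51 CPM. The pan-leukocyte list of 10 genes, Ptprc among them, summed to 95.5, 335 and 298 CPM (GFP-high), 225, 86.6 and 2450 CPM (GFP-negative) and 98.4, 99.9 and 345 CPM (small intestine). GFP-high replicate 3 was above GFP-negative replicate 1 for this sum but not for the members. Between these libraries Ptpn6, Rac2 and Ptprc were higher in GFP-high replicate 3, and every other gene of the list was lower there. The sum therefore did not rank them as most of its genes did. By mean level per kb the leading genes of this list were Cd52 (0.0573 to 428 CPM over the 9 libraries), Ptpn6 (49.3 to 185 CPM) and Rac2 (15.4 to 336 CPM). In edgeR 0 genes of these 4 lists were called in the 3 comparisons. At an unadjusted p under 0.05 the counts were 0 to 1 of 10 pan-leukocyte, 0 to 2 of 20 myeloid, 0 to 4 of 10 B-cell and 0 to 2 of 17 T-cell genes. DESeq2 called 3 of the myeloid genes in each comparison with the small intestine and 1 T-cell gene in the second of them, and limma-voom called 0. Over all 20610 genes DESeq2 called 2714 and 3620 in those comparisons. The part of leukocyte RNA in the class II levels of the colon libraries was not tested.

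Tuft-cell genes were examined after the values of Ptprc were seen, because tuft cells, a chemosensory epithelial type, are known to carry some Ptprc transcripts. The 10 genes summed to 208, 549 and 918 CPM (GFP-high), 184, 144 and 266 CPM (GFP-negative) and 178, 336 and 1239 CPM (small intestine). The highest sums were in GFP-high replicate 3 and small intestine replicate 3, in which Ptprc was at 17.3 and 11.2 CPM and Coro1a at 0.410 and 4.68 CPM. Between the colon fractions 0 of the 10 were called by edgeR, with 2 at an unadjusted p under 0.05, and 1, Gnat3, was called higher in each comparison with the small intestine, a call lost without small intestine replicate 1 or 3 (adjusted p up to 0.0622 and 0.0694). Their part in the Ptprc level was not tested.

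A close relative of H2-DMb1 was high in the colon libraries with much class II RNA and low in the small intestine. H2-DMb2, a near-identical neighbour of H2-DMb1, was at 0.00954, 11.8 and 0.0372 CPM (GFP-high), 3.46, 0 and 263 CPM (GFP-negative) and 1.60, 0.371 and 0.465 CPM (small intestine). Of the counts assigned to either gene, H2-DMb1 took 99.8%, 49.6% and 98.0% in GFP-high, 58.5%, 100% and 14.7% in GFP-negative and 96.9%, 99.2% and 97.5% in small intestine libraries. The 3 libraries with a low share were the colon libraries with the highest summed B-cell level. Among the colon libraries they also had the highest sums of the T-cell genes, of the macrophage and dendritic-cell genes and of the members. Their 95% Wilson intervals, which cover counting error only, ran from 47.5% to 51.7%, from 54.7% to 62.3% and from 14.3% to 15.1%. Small intestine replicate 1, whose B-cell sum of 50.4 CPM was above that of GFP-negative replicate 1, had a share of 96.9%. That order of the B-cell sums rested on Jchain, at 38.7 CPM in small intestine replicate 1 and 0.104 CPM in GFP-negative replicate 1. The genes are so alike that reads may have been assigned to the wrong one or left out, and each value is uncertain to that extent.

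**Figure D4:**
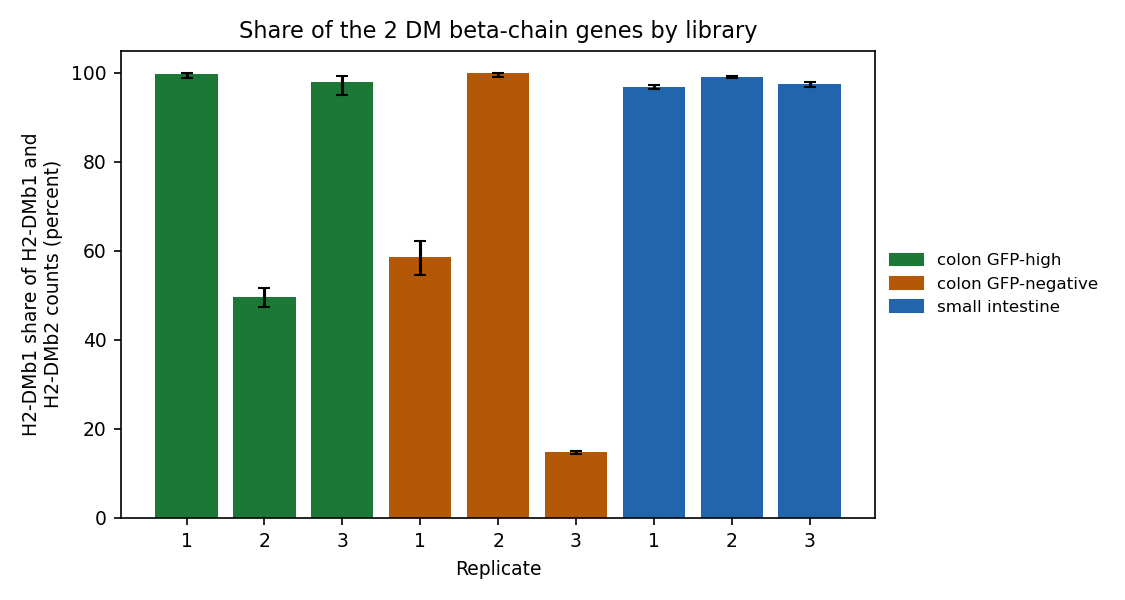
Share of H2-DMb1 in the counts of H2-DMb1 and H2-DMb2 in each library (percent), with 95% Wilson intervals as bars. The share is 96.9% or more in 6 libraries and lowest in colon GFP-negative replicate 3, at 14.7%.

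H2-Oa and H2-Ob encode the DO heterodimer, an inhibitor of DM known mainly from B cells. H2-Oa was at 51.1 CPM and H2-Ob at 80.5 CPM in colon GFP-negative replicate 3. In the small intestine, where H2-DMa was at 77.1 CPM or more, H2-Oa was at 0.260, 0.127 and 0.147 CPM, and H2-Ob was at 0.302, 0 and 0.0465 CPM.

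Of 12 further genes of class II chains and peptide loading in the table, 10 were tested. Between the colon fractions edgeR, DESeq2 and limma-voom called 0. Against the small intestine edgeR called 1 higher in GFP-high cells and 2 higher in both colon groups, and over all 20610 genes 813 and 1030. DESeq2 called 2 and 2 of the 10 (2714 and 3620 of all genes), and limma-voom 1 and 1 (1060 and 1696 of all genes). The genes called by edgeR were both endosomal proteases and both were higher in the colon. Ctsl, cathepsin L, which trims the invariant chain, was 2.07 ± 0.30 log2 units higher in GFP-high cells than in the small intestine (SE; edgeR, adjusted p = 0.00623) and 2.09 ± 0.28 higher in both colon groups (adjusted p = 0.00300). It was called whichever of the 9 libraries was left out. Lgmn, the protease legumain, was 0.67 ± 0.17 higher in both colon groups (edgeR, adjusted p = 0.0449), a call lost whichever of the 9 libraries was left out. By mean level per kb the list was led by Ifi30, a lysosomal thiol reductase (107 to 251.1 CPM over the 9 libraries), and the cathepsins Ctsb (687 to 1215 CPM) and Ctss (69.0 to 637 CPM), which were not called. The factors that bind the class II promoter module, 8 genes of the RFX, NF-Y and CREB families, had 0 of 8 called in each comparison, with medians of 0.03 between the colon fractions, -0.14 for GFP-high cells against the small intestine and -0.23 for both colon groups against it. At an unadjusted p under 0.05, and by DESeq2 and limma-voom, the count was also 0 of 8.

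Of the interferon-gamma pathway, 23 of 24 listed genes were tested. Between the colon fractions 0 were called by edgeR, DESeq2 or limma-voom and 0 had an unadjusted p under 0.05, while edgeR called 1 lower in GFP-high cells than in the small intestine (1.75% of all genes) and 2 lower in both colon groups (3.79% of all genes). Against the small intestine DESeq2 called 3 and 4 of the 23 (Irf1, Jak2 and Ido1, and for both colon groups also Ifngr2), and limma-voom 1 and 2. Over all 20610 genes DESeq2 called 2714 and 3620, and limma-voom 1060 and 1696, shares close to those of the list. Irf1, a transcription factor induced by interferon, was between 82.4 and 128 CPM in the 6 colon libraries and between 205 and 266 CPM in the small intestine, with no overlap. Its log2 fold change for both colon groups was -1.11 ± 0.20 (SE; edgeR, adjusted p = 0.00979), and it was called whichever library was left out. Its log2 fold change of -1.01 ± 0.24 in GFP-high cells (adjusted p = 0.0427) lost its call whichever library was left out. Ido1, a tryptophan-degrading enzyme, had a log2 fold change of -3.96 ± 0.98 in both colon groups (edgeR, adjusted p = 0.0386) and was called in 3 of the 9 fits that left out 1 library, with adjusted p up to 0.130.

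The MHC class I pathway, which presents peptides to CD8+ T cells, had 17 of 17 listed genes tested. Between the colon fractions 0 were called by edgeR, DESeq2 or limma-voom, and 0 had an unadjusted p under 0.05. Against the small intestine edgeR called 2 of 17 lower in GFP-high cells (1.75% of all genes) and 3 of 17 lower in both colon groups (3.79% of all genes), DESeq2 called 6 and 5, and limma-voom 3 and 3. Over all 20610 genes DESeq2 called 2714 and 3620, and limma-voom 1060 and 1696. Tap1, a subunit of the peptide transporter, and Erap1, a peptide-trimming protease, were lower in GFP-high cells than in the small intestine, and both were lower in both colon groups too, together with Tapbpl, a peptide editor. Tap1 was between 9.56 and 31.7 CPM in the colon and at 83.9, 37.3 and 71.5 CPM in the small intestine, again without overlap. For Tap1 the log2 fold change was -1.89 ± 0.39 in both colon groups (edgeR, adjusted p = 0.0196), and the call was lost without colon GFP-high replicate 3, GFP-negative replicate 1, small intestine replicate 1 or small intestine replicate 3, with adjusted p up to 0.0849. Erap1 was at -1.28 ± 0.23 (adjusted p = 0.0108) and was called whichever library was left out. Tapbpl was at -1.07 ± 0.23 (adjusted p = 0.0229) and was called in 4 of 9 such fits, with adjusted p up to 0.0919. For GFP-high cells against the small intestine Tap1 was at -2.09 ± 0.49 and Erap1 at -1.36 ± 0.28 (edgeR, adjusted p = 0.0435 and 0.0278), each called in 2 of 9 such fits. Of 9 costimulator genes 8 were tested, and Btnl2, a butyrophilin-like gene of the class II region, was called in both comparisons with the small intestine. It was between 0.324 and 2.08 CPM in the colon and at 82.2, 11.5 and 46.7 CPM in the small intestine, and its log2 fold change was -5.03 ± 0.69 in both colon groups (adjusted p = 0.00327), a call made whichever library was left out. In GFP-high cells it was -4.89 ± 0.91 (edgeR, adjusted p = 0.0172), called in 4 of 9 such fits, with adjusted p up to 0.0704. Of the 8 costimulator genes edgeR thus called 1 lower in each comparison, against 1.75% and 3.79% of all genes. DESeq2 called 2 and 3 of them (Btnl2 and Btnl1, and for both colon groups also Btn1a1), and limma-voom 1 and 1.

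The genes whose pattern was most like that of the members were ranked by Pearson correlation of log2(CPM + 0.5) over the 9 libraries with the mean of the 7 members, among 10281 genes with a mean of 5 CPM or more. The 10 closest were Psmb8 (0.943), an immunoproteasome subunit, Dolpp1 (0.928), Naaa (0.923), Itpr3 (0.920), Spsb1 (0.917), Cd47 (0.910), Smndc1 (0.903), N4bp2l1 (0.901), Hsd17b13 (0.899) and Bmp2k (0.898). Psmb9, another immunoproteasome subunit, ranked 15, and B2m, the light chain of class I molecules, ranked 43. Ptprc ranked 2099 with a correlation of 0.377 and Coro1a ranked 761 with 0.594. Over the 6 colon libraries alone the order was different: H2-DMb2 ranked 4 (0.992), Cd79a 43 (0.981), Coro1a 94 (0.969) and Ptprc 752 (0.836), and 0 of the 10 genes named above stayed among the closest 10. Psmb9 ranked 37 (0.982) there, above Cd79a and Coro1a, while B2m ranked 145 (0.956) and Psmb8 154 (0.954). These are descriptions over 9 and 6 libraries that share depth scaling.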

How the data were processed

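Each value rests on a long table of 78239 genes in 9 libraries. Per the file headers it holds the authors' raw read count, the library total, edgeR's normalization factor (a ratio) and log2 CPM, log2 RPKM and log2 TPM, all deposited, of which the log2 columns were not used here. STAR, featureCounts of Subread and edgeR are named with mm10 in the submitters' processing notes; no versions are recorded there. CPM were computed from count, total and factor. Genes with low counts were removed (filterByExpr), leaving 20610, all 7 members included. Counts were fitted with edgeR 4.0.16 (R 4.3.3) in 1 quasi-likelihood model of 3 groups, and a gene was called at a Benjamini-Hochberg adjusted p under 0.05 over all genes tested. The common biological coefficient of variation was 0.726. The fit was tested on simulated counts. Alternatives were limma 3.58.1 (voom), DESeq2 1.42.0, no filter, and omitted libraries. Members, gene lists and tests were chosen with earlier results of these data known. By rule the named genes were the members, Ptprc, Lgr5, the list genes that edgeR called, the 3 most abundant per kb of a list and the 10 of closest pattern; other list genes, such as H2-Oa, H2-Ob, Coro1a, Laptm5 and Krt20, were chosen after their values were seen.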

Additional observations from a re-analysis of the deposited data

How the results depend on the processing

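GFP-high against GFP-negative colon cells called 0 genes in edgeR, 1 in DESeq2 and 701 in DESeq2 without the colon replicate 2 pair, an alternative chosen after seeing the data. GFP-high cells against the small intestine gave 1173 calls, 2714 in DESeq2, 508 without the replicate 2 pair and 1881 in DESeq2 without it, and from 564 to 1375 when each library was left out in turn. Both colon groups against the small intestine gave 1812 calls, and 3620, 1089 and 2846 under the same alternatives, and from 991 to 1787 with each library left out. The first count moved by over 1.5 times without GFP-high replicate 1 (705), 2 (564) or 3 (666), GFP-negative replicate 1 (683) and small intestine replicate 1 (635) or 3 (566), and the second without GFP-negative replicate 1 (1056) and small intestine replicate 1 (1014) or 3 (991). Of the members, DESeq2 called 1 against the small intestine in GFP-high cells, and DESeq2 without the replicate 2 pair called 7, 7 and 3 in the 3 comparisons; leaving out each library gave 0 to 1 for GFP-high cells and 0 to 4 for both colon groups against the small intestine, the upper values without GFP-negative replicate 3.

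Whether replicate numbers pair the libraries could not be decided. Same-numbered libraries had deviations from their group means correlated from -0.65 to 0.34 over 9 pairs, and libraries sharing a tag from -0.65 to 0.38 over 5 pairs. The value of -0.65 is that of the colon replicate 2 pair, in which Lgr5 goes against the labels. With the replicate block edgeR called 508 genes for GFP-high cells and 895 for both colon groups against the small intestine, and 0 members. With the tag in the library name as a block, in which libraries with a tag of their own take no part, it called 18 and 18 genes and 0 members. Under that block the log2 fold change of GFP-high against GFP-negative cells reversed to 1.27 for H2-Aa, 0.86 for H2-Ab1, 0.82 for H2-Eb1, 1.27 for Cd74, 1.18 for H2-DMa and 0.72 for H2-DMb1. Without GFP-negative replicate 3 it reversed to 1.54 for H2-Aa and H2-Ab1, 1.51 for H2-Eb1, 1.21 for Cd74, 0.11 for Ciita, 0.98 for H2-DMa, 0.50 for H2-DMb1 and 1.27 for Ptprc. The lowest values with 1 library left out came without GFP-high replicate 2, at -5.10, -5.30, -5.60, -4.91, -5.65, -3.23, -2.42 and -1.92 in the same order. The cause was not tested. Total-count scaling moved the median of all genes from -0.02 to 0.13 between the colon fractions and kept all members negative, as did the filters tried and limma-voom, under which the members' median moved from -2.76 to -1.15 between the colon fractions, from -2.94 to -3.91 for GFP-high cells against the small intestine and from -1.75 to -3.20 for both colon groups. Depth did not limit the members other than Ciita, which had 8 counts in its lowest library. Ranked by Spearman's rho in place of Pearson's r, 3 of the 10 genes of closest pattern remained.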

Other observations

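Genes of the antibody-secreting and B-cell programmes did not move together among the colon libraries. Jchain, which joins secreted immunoglobulin chains, was at 346 CPM in GFP-high replicate 2, where Cd79a was at 7.07 CPM and Ighm at 11.6 CPM. In GFP-negative replicate 1 Cd79a was at 6.29 CPM and Ighm at 11.8 CPM with Jchain at 0.104 CPM. GFP-negative replicate 3 had 638 CPM of Jchain, 476 CPM of Cd79a and 547 CPM of Ighm. Igkc, the kappa constant gene, was listed at 0 counts in 8 of the 9 libraries and at 0.0429 CPM in GFP-negative replicate 3. How the counting treated immunoglobulin genes and reads with several matches is not stated in the labels, and no statement on Igkc RNA rests on these zeros.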
